A study of Arabidopsis thaliana with 12 samples.

Results

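The UMAMIT genes of Arabidopsis thaliana encode membrane transporters, and their transcripts were followed here in seedlings that differed in genotype and in exposure to the chemical 3-bromo-7-nitroindazole (3B7N). Members were chosen by name alone, as the loci whose symbol or synonym in the gene table is UMAMIT followed by a number. The table held 47 such loci, and 41 of them had a probe among the 25410 loci with a probe on the array. The 6 loci without a probe were UMAMIT20, UMAMIT22, UMAMIT29 and the 3 members named as pseudogenes, UMAMIT16-psi, UMAMIT39-psi and UMAMIT43-psi. Testing needed a probe that the scanner software flagged well above background on every array of some group, and 36 members passed, among 20487 genes.

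The samples formed 4 groups of 3 arrays, 1 array per sample: the cry1cry2 double mutant on 3B7N, the cry1cry2 double mutant on dimethyl sulfoxide (DMSO), wild type Col-0 (WT) on 3B7N, and WT on DMSO. The mutant lacks CRY1 and CRY2, the cryptochromes through which Arabidopsis seedlings sense blue light, and its alleles are not named in the labels. Chemical treatments were at 15 µM in the agar on which seeds were sown, and all groups spent 3 days cold and dark and then 4 days in continuous blue light, at 5 µmol m-2 s-1, before the seedlings were frozen. The study asked how chemicals that alter hypocotyl length act in blue light, and 3B7N is the 1 chemical in these samples.

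UMAMIT stands for "usually multiple acids move in and out transporters". These plant proteins move amino acids and related small molecules across membranes, and several of them release amino acids from cells, for example when phloem is unloaded or when the maternal tissue feeds the developing seed. A few members are known for other cargoes or roles, among them UMAMIT5, better known as WALLS ARE THIN 1 (WAT1), which is needed for secondary cell walls and exports auxin from the vacuole, and UMAMIT36, known as RTP1, a negative regulator of resistance to the pathogen Phytophthora parasitica.

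Signals are given as log2 of the processed spot signal relative to the 75th percentile of the same array, so that 0 is the level of that percentile. A gene was called where the adjusted p of limma was under 0.05 and the log2 difference was at least 1 in size. The array's 75th percentile of processed signal ranged over 882.6 to 6794, and 64.4% to 81.2% of probes were well above background, with the lowest value of both on WT 3B7N array 2. The CRY genes matched the labels, since CRY1 lay between -9.85 and -7.73 on the cry1cry2 arrays and between 3.25 and 3.86 on the WT arrays, and CRY2 between -8.94 and -8.59 on the cry1cry2 arrays and between 1.85 and 2.49 on the WT arrays. Each group difference was also set against the 3 slides: slide 1 held all WT DMSO arrays and WT 3B7N array 1, slide 2 held the other two WT 3B7N arrays with cry1cry2 DMSO arrays 1 and 2, and slide 3 held cry1cry2 DMSO array 3 and all cry1cry2 3B7N arrays. The mutant and WT therefore never shared a slide on the same medium. The labels do not say whether replicates were grown as separate cultures. The p-values therefore speak only of the spread between these samples, and the small number of arrays limits the precision.

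Whole seedlings were measured, so fewer cells of a type and less RNA per cell cannot be told apart. Markers of several tissues were therefore summed on each array as linear relative signal, and all 6 green tissue, 9 root and 8 vascular markers were tested. The green tissue sum was 292 to 368 in cry1cry2 on 3B7N, 177 to 375 in cry1cry2 on DMSO, 498 to 989 in WT on 3B7N and 522 to 662 in WT on DMSO. The vascular sum was 14.9 to 25.4 in cry1cry2 on 3B7N, 23.6 to 30.2 in cry1cry2 on DMSO, 21.7 to 26.6 in WT on 3B7N and 14.2 to 15.6 in WT on DMSO. The root sum was 59.6 to 62.9 in cry1cry2 on 3B7N, 46.8 to 79.9 in cry1cry2 on DMSO, 79.5 to 119 in WT on 3B7N and 66.6 to 72.1 in WT on DMSO. Such linear sums weigh the brightest genes most. The brightest vascular marker was SUC2, a phloem gene, with mean log2 levels of 4.12 in WT on 3B7N and 3.15 in WT on DMSO. The brightest root marker was BGLU23, with 5.93 and 5.86. The 6 xylem genes alone summed to 6.52 to 7.05 in WT on 3B7N and 4.97 to 5.89 in WT on DMSO. One array stood apart in its xylem markers: on cry1cry2 3B7N array 2 the sum of the 6 xylem genes was 14.8, against 4.12 and 4.87 on the other arrays of its group and 14.4 to 16.6 in cry1cry2 on DMSO.

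Most of the family was detectable in seedlings. Of the 36 tested members, 27 were well above background on all 12 arrays. UMAMIT9, UMAMIT24 and UMAMIT32 were well above background on 0 of 12 arrays, UMAMIT7 on 1 and UMAMIT15 on 2, and these 5 were not tested. UMAMIT24 is known from seed filling. Between these ends stood members seen in some groups more than others. UMAMIT14, an exporter known from root phloem and seeds, was above background on 3 of 3 arrays in cry1cry2 on 3B7N, 3 of 3 in cry1cry2 on DMSO, 1 of 3 in WT on 3B7N and 0 of 3 in WT on DMSO. UMAMIT8 was above background on all arrays of both cry1cry2 groups, on 2 of 3 in WT on 3B7N and on 1 of 3 in WT on DMSO. The median standard deviation (SD) over the tested members was 0.20 in cry1cry2 on 3B7N, 0.15 in cry1cry2 on DMSO, 0.23 in WT on 3B7N and 0.17 in WT on DMSO, and the highest was 1.41, for UMAMIT35 in cry1cry2 on 3B7N.

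**Figure D1:**
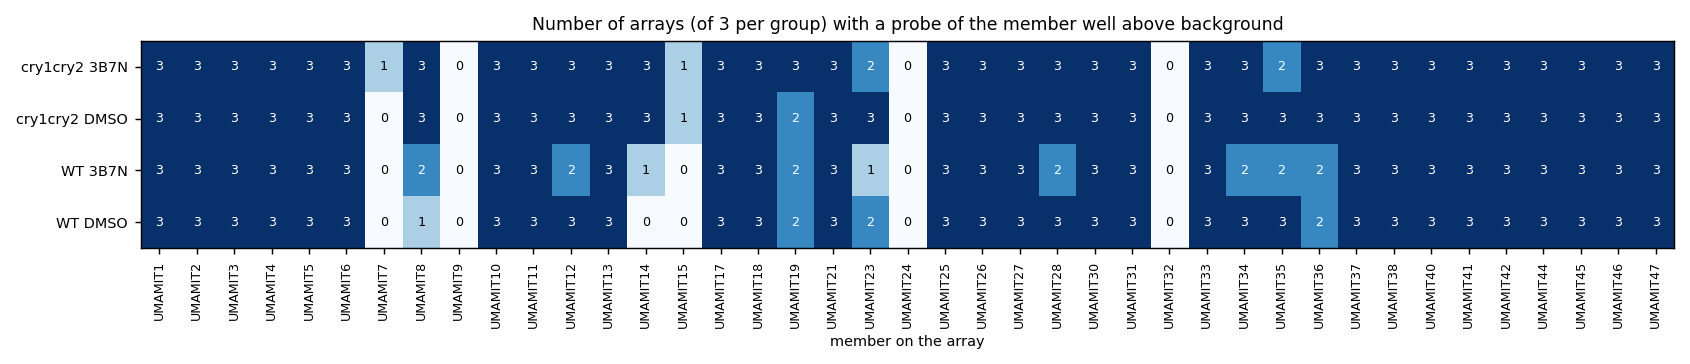
Number of arrays (of 3) in each group on which a probe of the member was well above background, for all 41 members on the array, with groups as rows. Most columns read 3 throughout, UMAMIT9, UMAMIT24 and UMAMIT32 read 0 throughout, and UMAMIT14 reads 3, 3, 1 and 0 from the top row down.

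On DMSO, transcripts of the family differed between cry1cry2 and WT in both directions. Of 36 tested members, 4 were called higher and 4 lower in cry1cry2 than in WT, which is 22.2% of the members, against 19.0% of all tested genes (7.62% higher and 11.4% lower). The median log2 difference of the members was 0.12, against -0.0046 for all tested genes. The share of called members was thus near that of the array as a whole, and the sizes of single members carried the comparison. The groups did not overlap for 28 members, 77.8% of those tested, against 55.9% of all genes.

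Among members known as exporters of amino acids, UMAMIT14 and UMAMIT18 were higher in the mutant on DMSO, and UMAMIT11 and UMAMIT25 were lower. UMAMIT18 (AT1G44800, SIAR1), a bidirectional amino acid transporter of vascular tissue, had 0.84, 0.74 and 0.97 in cry1cry2 on DMSO and -0.62, -0.42 and -0.34 in WT on DMSO. The 2 groups were well apart, by 1.31 ± 0.18 (SE, adjusted p = 0.00013). UMAMIT14 (AT2G39510) had -6.34, -5.46 and -5.37 in cry1cry2 on DMSO and -7.93, -8.12 and -8.80 in WT on DMSO. Since no WT DMSO array was above background, it was at least 2.42-fold higher in the mutant (means -5.72 and -8.29, adjusted p = 0.000112). The probe behind these values passed the filter only through the cry1cry2 groups, where it is high, so its adjusted p is that of a selected member. The further kept probe of UMAMIT14 was above background on 0 of 3 WT DMSO arrays too. That further probe passed the filter only through cry1cry2 on DMSO, so it is no separate support for the direction.

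UMAMIT25 (AT1G09380), which helps to fill seeds with amino acids, had -3.32, -3.73 and -3.46 in cry1cry2 on DMSO and -2.15, -2.24 and -2.01 in WT on DMSO. Every mutant array lay below every WT array, with a difference of -1.37 ± 0.18 (adjusted p = 8.77e-05). UMAMIT11 (AT2G40900), an exporter of phloem and seed coat, had -0.29, -0.13 and 0.03 in cry1cry2 on DMSO and 1.40, 0.82 and 0.63 in WT on DMSO, a difference of -1.08 ± 0.33 (adjusted p = 0.0189). The spread of the WT arrays was wide for UMAMIT11, and its call ended when cry1cry2 DMSO array 1 (-0.996) or WT DMSO array 1 (-0.85) was left out, and with slide as a block (-0.57, adjusted p = 0.535).

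UMAMIT36 (AT1G70260, RTP1) gave the widest difference of the family. Its processed signal before scaling was 1547, 829.6 and 1011 in cry1cry2 on DMSO and 19.02, 30.01 and 37.13 in WT on DMSO. On the relative log2 scale these are -2.13, -1.63 and -2.06 in cry1cry2 and -6.68, -5.81 and -5.97 in WT. The 3 mutant arrays stood apart from the arrays of all other groups, and the difference was 4.22 ± 0.37 (adjusted p = 4.92e-06), with 2 of 3 WT arrays above background. Its 3 kept probes gave 4.22, 4.17 and 4.08. The probe at 4.08 passed the filter only through cry1cry2 on DMSO, the group where it is high, and was above background on 1 of 3 WT DMSO arrays. The size also depends on how signal near background is treated (2.63 with normexp background correction).

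The remaining calls fell on members without a role stated here. UMAMIT35 (AT1G60050) had -3.65, -3.94 and -3.33 in cry1cry2 on DMSO and -5.76, -5.91 and -5.50 in WT on DMSO, a difference of 2.08 ± 0.56 (adjusted p = 0.0107). UMAMIT46 (AT3G28070) had -5.89, -6.04 and -5.74 in cry1cry2 on DMSO and -4.26, -4.26 and -3.79 in WT on DMSO, and it fell by 1.79 ± 0.16 (adjusted p = 6.93e-06). UMAMIT13 (AT2G37450) had -1.58, -1.80 and -1.72 in cry1cry2 on DMSO and -0.72, -0.69 and -0.61 in WT on DMSO, and it fell by 1.03 ± 0.18 (adjusted p = 0.000753). In all 3 genes the groups did not overlap. Just short of the size threshold were UMAMIT5 (0.94 ± 0.20, adjusted p = 0.00281) and UMAMIT33 (0.87 ± 0.15, adjusted p = 0.000656), both with higher values in the mutant. The further kept probe of UMAMIT33 gave 1.18, past that threshold, and that of UMAMIT5 gave 0.80.

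In the same comparison 6 of 8 vascular markers, the xylem genes, were called higher in cry1cry2 on DMSO, with XCP1 at 1.65 ± 0.42 and CESA8 at 1.37 ± 0.32. The phloem markers SUC2 (0.27) and APL (-0.28) were not called. Of 6 green tissue markers, 5 were called lower. Of all tested genes, 7.62% were called higher and 11.4% lower here. Of 9 root markers, CASP1 to CASP5 were higher by 1.09 to 2.03 and COBL9 (-1.88) and PRP3 (-1.98) were lower, and of 8 seed maturation markers 2 were higher. The part of these tissues in the UMAMIT values was not tested. With slide as a block, a fit that links these groups only through the other arrays, UMAMIT14 stayed called (adjusted p = 0.0239), and the differences were 4.15 for UMAMIT36, 1.23 for UMAMIT18, -1.64 for UMAMIT25, -1.91 for UMAMIT46 and -1.20 for UMAMIT13, all still called, while UMAMIT35 was 3.04 with an adjusted p of 0.0673. With normexp background correction UMAMIT14 (0.59), UMAMIT46 (-0.81) and UMAMIT13 (-0.96) were not called, and UMAMIT36 stood at 2.63 and UMAMIT35 at 1.19. The call of UMAMIT13 also ended with array weights (-0.97), without cry1cry2 DMSO array 2 (-0.98) and without WT DMSO array 3 (-0.99), and that of UMAMIT11 with the mean of its kept probes (-0.98).

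**Figure D2:**
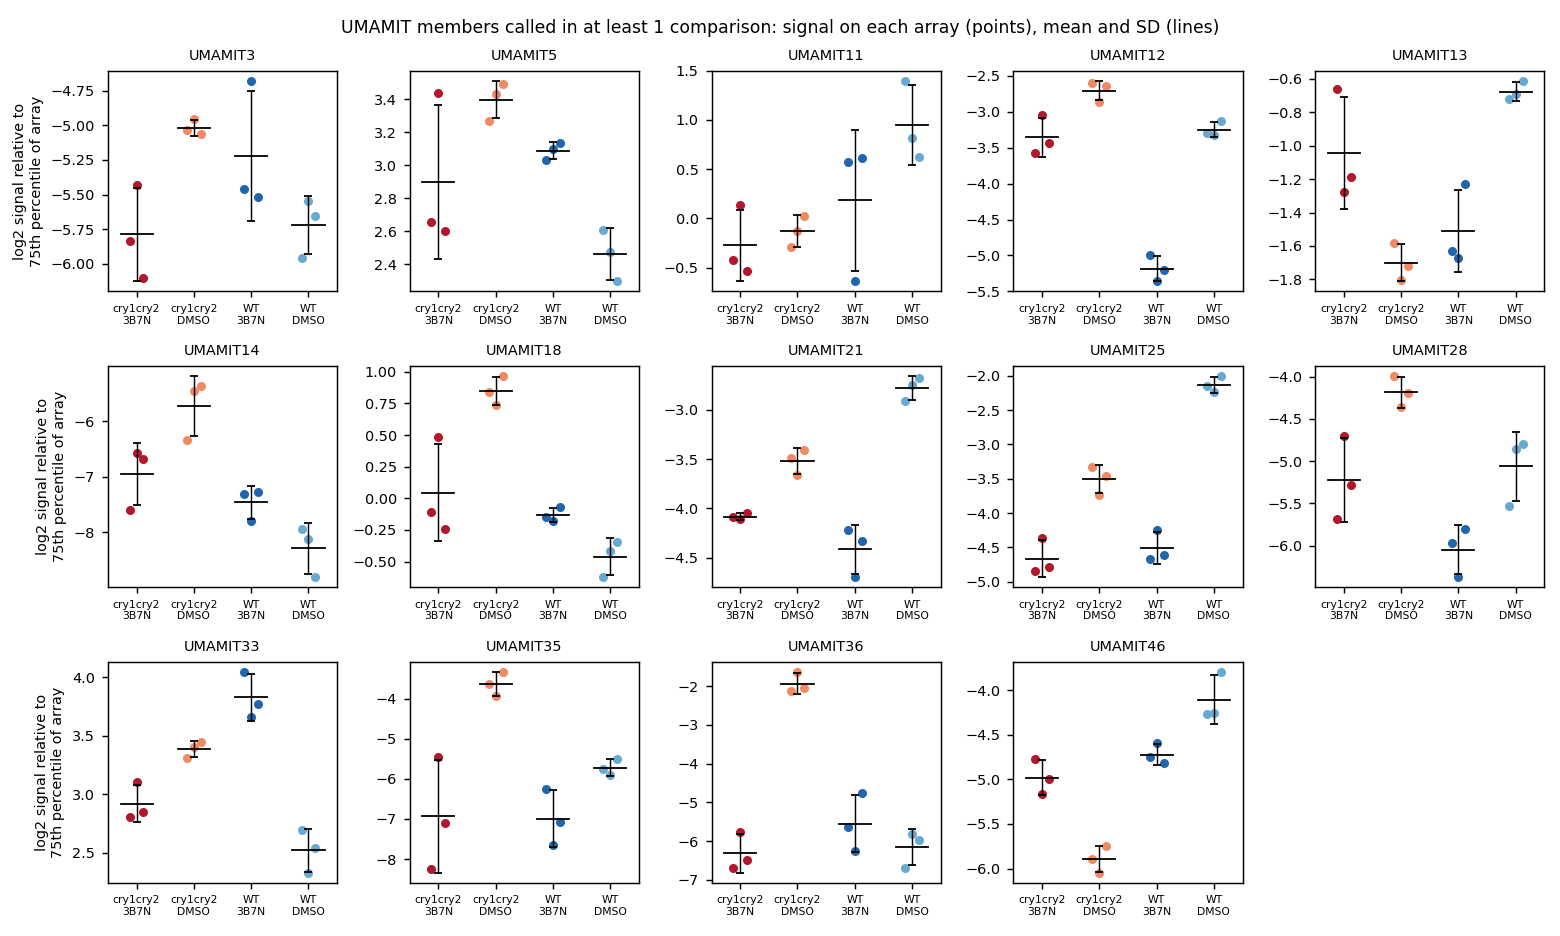
Relative log2 signal on each array (points) with the mean and SD of the group (lines), 1 panel for each of the 14 members called in at least 1 comparison, each with its own scale. The 3 cry1cry2 DMSO points of UMAMIT36 lie at -2.13 to -1.63, above the points of all other groups, and the 3 WT DMSO points of UMAMIT25 lie at -2.24 to -2.01, above those of all other groups.

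On 3B7N, 1 member was called between the genotypes, with a higher value in cry1cry2. UMAMIT12 (AT2G37460) had -3.57, -3.05 and -3.44 in cry1cry2 on 3B7N and -5.00, -5.35 and -5.20 in WT on 3B7N. The mutant arrays were all higher, by 1.83 ± 0.16 (adjusted p = 5.65e-05). This 1 call is 2.78% of the members, against 7.28% of all tested genes (4.01% higher and 3.27% lower), and the groups did not overlap for 11 members (30.6%, against 41.9% of all genes). UMAMIT33 came closest among the rest, at -0.91 ± 0.15 (adjusted p = 0.00252). Of the members called on DMSO, UMAMIT36 stood at -0.77 ± 0.37 (adjusted p = 0.142), UMAMIT35 at 0.06 ± 0.56, UMAMIT14 at 0.51 ± 0.34 and UMAMIT25 at -0.15 ± 0.18, with 0 of the 8 called. UMAMIT12 was not called with slide as a block (1.83, adjusted p = 0.0572) or with normexp background correction (0.97), and 2 members were called without cry1cry2 3B7N array 1.

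In WT, 3 members fell and 1 rose on 3B7N. This is 11.1% of the tested members, against 15.0% of all tested genes (5.89% higher and 9.09% lower). The median log2 difference was -0.21 for the members and -0.06 for all genes, and the groups did not overlap for 25 members (69.4%, against 49.9% of all genes), 16 of them lower and 9 higher on 3B7N.

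UMAMIT25, the seed-filling transporter, fell the furthest of the members in WT. It had -4.67, -4.25 and -4.61 in WT on 3B7N, against the -2.15, -2.24 and -2.01 already given for WT on DMSO. The difference was -2.37 ± 0.18 (adjusted p = 3.93e-06). The 3 WT arrays on 3B7N also lay below those of cry1cry2 on DMSO, which were between -3.73 and -3.32.

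UMAMIT12 and UMAMIT21, whose cargo is not stated here, also fell. UMAMIT12 had -5.00, -5.35 and -5.20 in WT on 3B7N and -3.29, -3.32 and -3.13 in WT on DMSO, a difference of -1.94 ± 0.16 (adjusted p = 8.22e-06), with 2 of 3 arrays above background on 3B7N. UMAMIT21 (AT5G64700) had -4.22, -4.70 and -4.33 in WT on 3B7N and -2.91, -2.75 and -2.67 in WT on DMSO, a difference of -1.64 ± 0.14 (adjusted p = 1.25e-05). Its further kept probe gave -1.82.

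UMAMIT33 (AT4G28040) was the 1 member that rose in WT. It had 4.05, 3.66 and 3.77 in WT on 3B7N and 2.70, 2.33 and 2.54 in WT on DMSO. The difference was 1.31 ± 0.15 (adjusted p = 6.4e-05), and its further kept probe gave 1.44. UMAMIT28 (AT1G01070), an exporter of the developing seed, fell just short of the size threshold at -0.99 ± 0.27 (adjusted p = 0.0124), and so did UMAMIT17 (AT4G08300) at -0.97 ± 0.15 (adjusted p = 0.000507).

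Within slide 1, which holds 1 WT 3B7N array and 3 WT DMSO arrays, the 4 calls stayed: UMAMIT25 was at -2.54, UMAMIT12 at -1.75, UMAMIT21 at -1.44 and UMAMIT33 at 1.53. The normexp background correction left all 4 called, with UMAMIT12 at -1.10 and UMAMIT21 at -1.07, more than 1.5 times nearer to 0. In the authors' deposited table, whose folds carry no sign, the list for WT holds UMAMIT25 at 5.32, UMAMIT21 at 3.62 and 3.19 by 2 probes, and UMAMIT33 at 2.65 and 2.41 by 2 probes. That list also holds UMAMIT26 at 2.63, UMAMIT27 at 2.02 and UMAMIT17 at 2.01 in the authors' deposited table, and as used here it holds no probe of UMAMIT12. In the same contrast 5 of 9 root markers, CASP1 to CASP5, were called higher on 3B7N by 1.53 to 2.29, while COBL9, a root hair gene, stood at -0.84 (adjusted p = 0.0152) and PRP3 at -0.33. Of the seed maturation markers EM1 (3.46) and OLEO2 (2.53) were called higher, and of the green tissue markers LHCB3 (1.07). None of the 8 vascular markers was called, and the part of these tissues in the UMAMIT values was not tested.

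**Figure D3:**
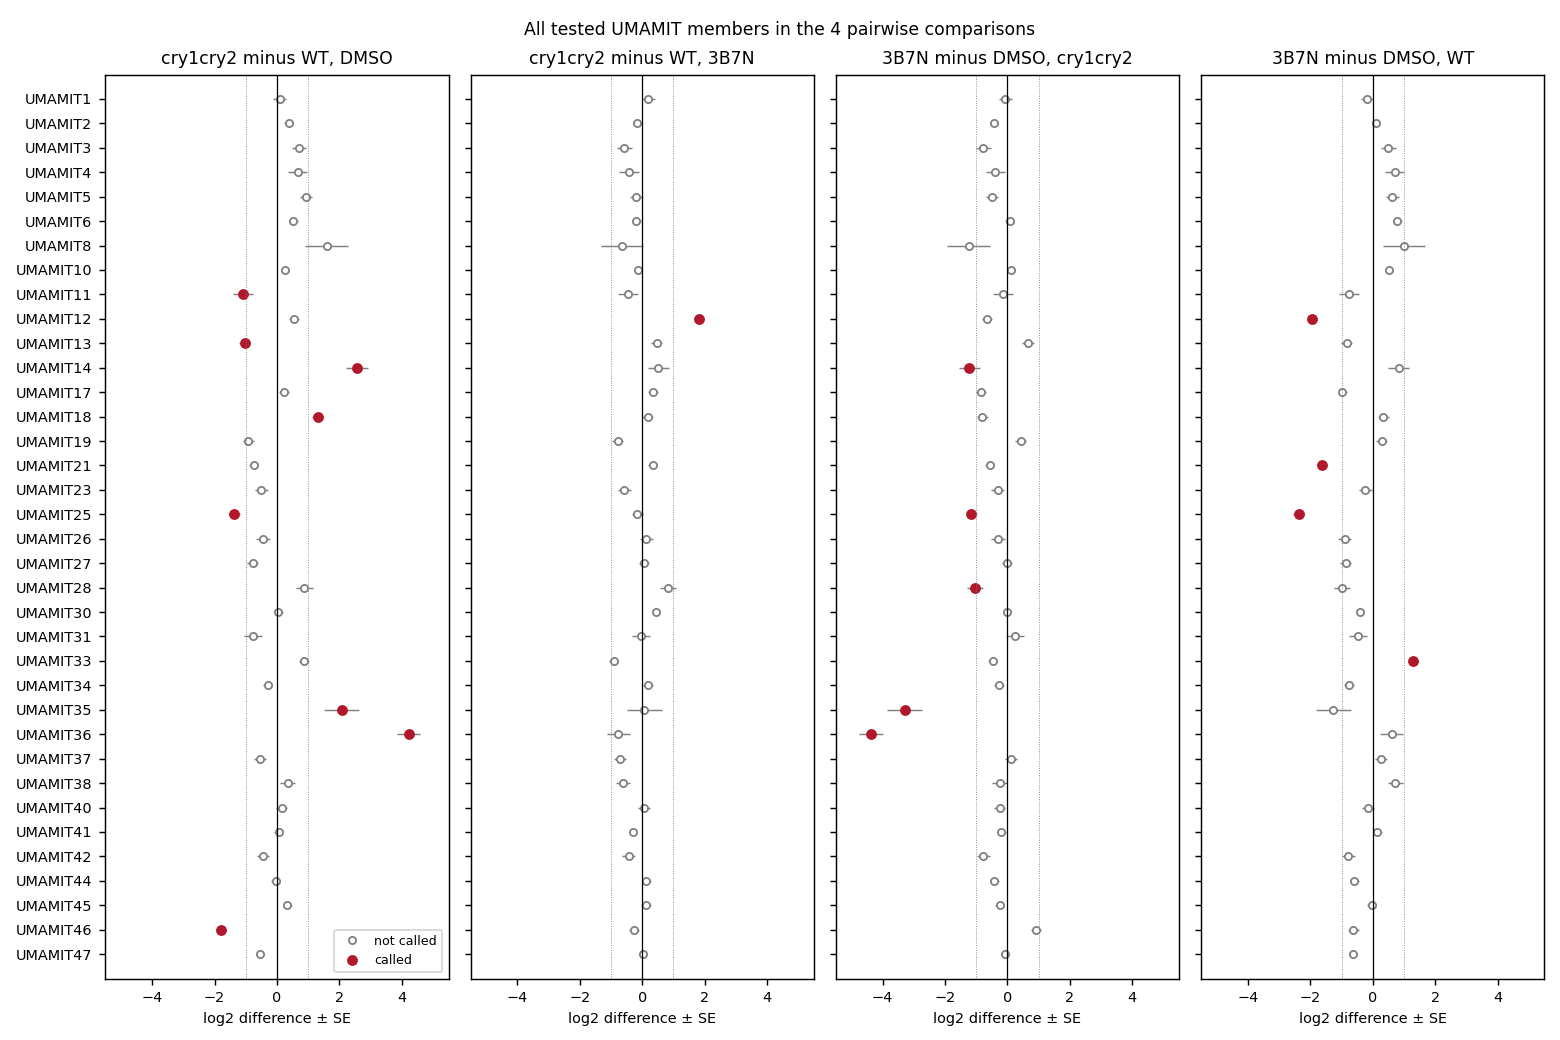
Log2 difference (x axis, with SE) of each of the 36 tested members in the 4 pairwise comparisons, filled red where called and open where not, with dotted lines at the size threshold of 1. The cry1cry2 3B7N panel has 5 filled points, all left of 0, and UMAMIT36 is at 4.22 in the first panel and -4.37 in the third, while the UMAMIT14 points that involve WT on DMSO rest on arrays where it was not above background.

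In cry1cry2, 5 members fell on 3B7N and 0 rose. This is 13.9% of the tested members, against 3.73% of all tested genes (2.10% higher and 1.63% lower). The median log2 difference of the members was -0.31, against 0.04 for all genes, and 29 of 36 had a negative value. The groups did not overlap for 19 members (52.8%, against 28.7% of all genes), 16 of them lower on 3B7N and 3 higher. The 5 calls share their cry1cry2 DMSO arrays with the comparison of the genotypes on DMSO, so high values on those arrays enter both.

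UMAMIT36, the RTP1 gene, fell the furthest of the members in cry1cry2. It had -6.70, -5.75 and -6.48 in cry1cry2 on 3B7N, against -2.13, -1.63 and -2.06 in cry1cry2 on DMSO. The difference was -4.37 ± 0.37 (adjusted p = 3.53e-05), and its 3 kept probes gave -4.37, -4.05 and -4.15. The probe at -4.15 passed the filter only through cry1cry2 on DMSO. On 3B7N the mutant thus had values close to those of WT on DMSO, which were -6.68, -5.81 and -5.97.

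UMAMIT35 had -8.24, -5.44 and -7.10 in cry1cry2 on 3B7N and -3.65, -3.94 and -3.33 in cry1cry2 on DMSO. The 3B7N arrays were far apart from each other and still all below the DMSO arrays, with a difference of -3.29 ± 0.56 (adjusted p = 0.00521) and 2 of 3 arrays above background on 3B7N. Without cry1cry2 3B7N array 2 the difference was -4.03.

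Of the amino acid exporters, UMAMIT25, UMAMIT14 and UMAMIT28 fell. UMAMIT25 had -4.84, -4.35 and -4.79 in cry1cry2 on 3B7N and -3.32, -3.73 and -3.46 in cry1cry2 on DMSO, a difference of -1.16 ± 0.18 (adjusted p = 0.00251). UMAMIT14 had -7.60, -6.57 and -6.68 in cry1cry2 on 3B7N and -6.34, -5.46 and -5.37 in cry1cry2 on DMSO, a difference of -1.23 ± 0.34 (adjusted p = 0.0498). UMAMIT28 had -5.68, -4.70 and -5.28 in cry1cry2 on 3B7N and -4.00, -4.36 and -4.20 in cry1cry2 on DMSO, a difference of -1.04 ± 0.27 (adjusted p = 0.0368). The arrays of the groups did not overlap for any of these 3 genes, but UMAMIT14 and UMAMIT28 were close to the threshold and lost their calls in 15 and 11 of 23 alternatives. UMAMIT18, at -0.80 ± 0.18 (adjusted p = 0.0184), and UMAMIT17, at -0.85 ± 0.15 (adjusted p = 0.00639), were below the size threshold, and UMAMIT46, at 0.91 ± 0.16 (adjusted p = 0.00692), was the highest value of the family here.

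Within slide 3, which holds 3 cry1cry2 3B7N arrays and 1 cry1cry2 DMSO array, and with slide as a block, UMAMIT36 was at -4.26 and called, while UMAMIT35 (-3.60), UMAMIT14 (-1.58), UMAMIT25 (-1.20) and UMAMIT28 (-1.03) were not, with adjusted p-values from 0.132 to 0.323 within the slide. With normexp background correction UMAMIT36 (-2.69) and UMAMIT35 (-1.41) were called and UMAMIT25 (-0.70), UMAMIT28 (-0.56) and UMAMIT14 (-0.37) were not. The authors' deposited table lists UMAMIT25 at 2.21, a fold without sign, for this contrast, and its list as used here holds no probe of UMAMIT36, UMAMIT35, UMAMIT14 or UMAMIT28.

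One array of this comparison, cry1cry2 3B7N array 2, differed from its group in the xylem markers. It was also the highest of its group for most of the tested members, UMAMIT17 and UMAMIT25 among them, but not for others such as UMAMIT13 and UMAMIT46. A high value on it is therefore not particular to the members named next. XCP1, a xylem protease gene, had 0.43, 2.64 and 0.76 on the 3 cry1cry2 3B7N arrays and 2.55, 2.32 and 2.37 on the cry1cry2 DMSO arrays. WAT1 (UMAMIT5) was likewise highest on array 2 of its 3B7N group, with 2.66, 3.44 and 2.60 in cry1cry2 on 3B7N and 3.27, 3.43 and 3.49 in cry1cry2 on DMSO. UMAMIT18 likewise had its highest 3B7N value on array 2, with -0.11, 0.48 and -0.24, against 0.84, 0.74 and 0.97 on DMSO. On array 2 these transcripts therefore lay closer to the DMSO arrays than on arrays 1 and 3. UMAMIT36 was also highest on array 2, at -5.75, against -2.13, -1.63 and -2.06 on the cry1cry2 DMSO arrays. The part of xylem in this value was not tested. Without array 2, 8 members were called in cry1cry2 (1 higher and 7 lower, with the 5 above among them), and UMAMIT36 stood at -4.65. Of the vascular markers, CESA4, CESA7 and CESA8 were called lower on 3B7N in the mutant, by -1.22, -1.24 and -1.37 on the log2 scale, as were the root marker CASP4 (-1.07) and the seed maturation marker SESA1 (-2.85); their part in the UMAMIT values was not tested.

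**Figure D4:**
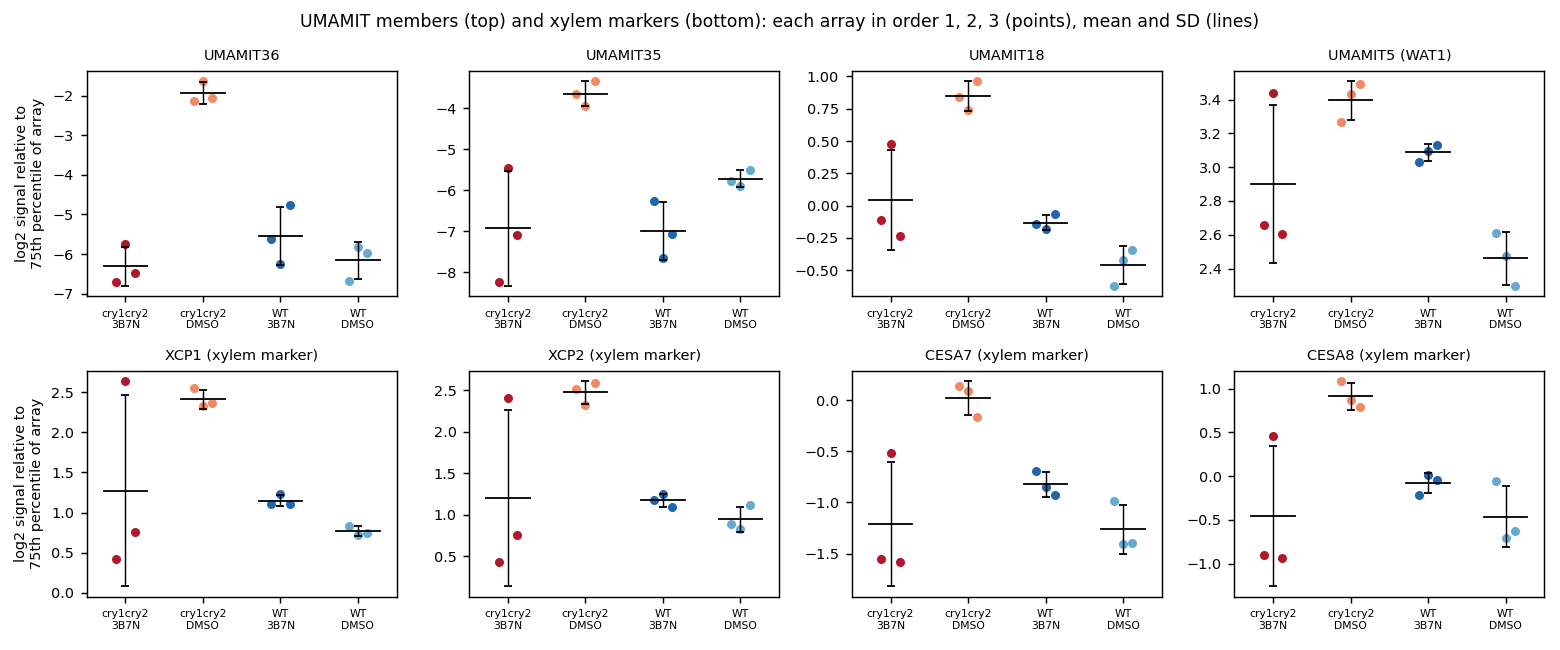
Relative log2 signal on each array in the order 1, 2, 3 (points) with mean and SD (lines) for 4 members (top) and 4 xylem markers (bottom), each panel with its own scale. The middle cry1cry2 3B7N point of XCP1 is at 2.64, beside 0.43 and 0.76, and the same array is the highest of its group for UMAMIT5 (3.44), UMAMIT18 (0.48), UMAMIT35 (-5.44) and UMAMIT36 (-5.75). That array is also the highest of its group for most of the tested members, which are not shown here.

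The 2 chemical comparisons share no array, so their calls were set side by side. UMAMIT25 was called in both genotypes, 3 members in WT alone and 4 in cry1cry2 alone. The log2 difference was negative in both genotypes for 18 of the 36 members (50%), against 21.5% of all tested genes, and positive in both for 4. UMAMIT28 is an example with like values, -1.04 in cry1cry2 and -0.99 in WT, and its 2 effects differed by -0.05 ± 0.38 (adjusted p = 0.937). UMAMIT17 is another, with 0.29, 0.80 and 0.33 in cry1cry2 on 3B7N and 1.28, 1.26 and 1.40 in cry1cry2 on DMSO, and 0.03, 0.11 and 0.23 in WT on 3B7N and 1.01, 1.05 and 1.22 in WT on DMSO. The 2 effects on UMAMIT17 differed by 0.12 ± 0.21 (adjusted p = 0.695).

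Whether 3B7N acted differently in the 2 genotypes was tested as an interaction, the effect in cry1cry2 minus the effect in WT. It was called for 11 of 36 members, 5 with a higher and 6 with a lower value in the mutant, which is 30.6%, against 18.6% of all tested genes (12.7% higher and 5.91% lower). Apart from UMAMIT14, the calls fell into 3 patterns, and all use the same 4 groups as the comparisons above.

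In the first pattern the member fell in WT and had a smaller negative value in the mutant. UMAMIT25 belonged here (interaction 1.22 ± 0.25, adjusted p = 0.00413), as did UMAMIT12 (1.29 ± 0.23, adjusted p = 0.00179) and UMAMIT21 (1.07 ± 0.20, adjusted p = 0.00286). UMAMIT21 had -4.09, -4.11 and -4.05 in cry1cry2 on 3B7N and -3.48, -3.66 and -3.41 in cry1cry2 on DMSO, and UMAMIT12 had -3.57, -3.05 and -3.44 in cry1cry2 on 3B7N and -2.61, -2.86 and -2.65 in cry1cry2 on DMSO. The mutant's own differences, -0.57 for UMAMIT21 and -0.65 for UMAMIT12, were not called.

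In the second pattern the value was negative in WT and positive in the mutant, with neither effect called by itself. UMAMIT13 had -0.66, -1.28 and -1.19 in cry1cry2 on 3B7N, against -1.58, -1.80 and -1.72 in cry1cry2 on DMSO, and -1.63, -1.67 and -1.23 in WT on 3B7N, against -0.72, -0.69 and -0.61 in WT on DMSO. Its effects were 0.66 in the mutant and -0.83 in WT, and they differed by 1.49 ± 0.25 (adjusted p = 0.00145). UMAMIT46 had -4.78, -5.17 and -5.00 in cry1cry2 on 3B7N and -4.75, -4.60 and -4.82 in WT on 3B7N. With its DMSO values given above, the effects were 0.91 in the mutant and -0.62 in WT, and they differed by 1.53 ± 0.23 (adjusted p = 0.000791). For both genes the 2 DMSO groups were further apart than the 2 groups on 3B7N.

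In the third pattern the value was positive in WT and negative in the mutant. Only the WT effect of UMAMIT33 and the mutant effect of UMAMIT36 were called by themselves. UMAMIT36 had the largest interaction, at -4.98 ± 0.52 (adjusted p = 9.58e-05). It had -5.63, -6.24 and -4.76 in WT on 3B7N, a WT effect of 0.61 that was not called (adjusted p = 0.206). Its WT groups overlapped, with 2 of 3 arrays above background in each, so the direction of its WT effect is not settled. UMAMIT33 followed at -1.77 ± 0.21 (adjusted p = 0.000184), with 2.81, 3.10 and 2.85 in cry1cry2 on 3B7N and 3.31, 3.41 and 3.44 in cry1cry2 on DMSO, which is the reverse order of its groups in WT. The transporter UMAMIT18 (-1.13 ± 0.25, adjusted p = 0.00622) was also in this set, with -0.14, -0.18 and -0.07 in WT on 3B7N. UMAMIT14 was called too (-2.06 ± 0.48, adjusted p = 0.00827), but it is in none of the patterns. It had -7.31, -7.80 and -7.27 in WT on 3B7N and was above background on 1 of 3 WT arrays there and 0 of 3 on DMSO, so the direction of its WT effect and the size of its interaction are not measured.

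WAT1 (UMAMIT5) and UMAMIT3 completed the third pattern. WAT1 had 3.03, 3.10 and 3.13 in WT on 3B7N and 2.61, 2.47 and 2.30 in WT on DMSO, a difference of 0.63 (adjusted p = 0.0269). In the mutant its groups overlapped, with a difference of -0.50 (adjusted p = 0.164). The interaction for WAT1 was -1.13 ± 0.28 (adjusted p = 0.012). UMAMIT3 (AT3G45870) had -5.84, -5.43 and -6.10 in cry1cry2 on 3B7N and -5.03, -4.95 and -5.07 in cry1cry2 on DMSO. In WT it had -5.46, -4.68 and -5.52 on 3B7N and -5.96, -5.55 and -5.66 on DMSO, and the interaction was -1.27 ± 0.33 (adjusted p = 0.0141). In the same test 4 of 8 vascular markers were called lower, 5 of 9 root markers (CASP1 to CASP5) were lower and 1 (COBL9, 1.19) was higher, and 3 of 8 seed maturation markers were lower. Their part in the UMAMIT values was not tested.

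With slide as a block the interaction remained called for UMAMIT36 (-4.79), UMAMIT14 (-2.55), UMAMIT33 (-2.05), UMAMIT13 (1.63), UMAMIT46 (1.41) and UMAMIT25 (1.34), and was not called for UMAMIT12 (1.04), UMAMIT3 (-0.99), UMAMIT5 (-1.16), UMAMIT18 (-1.24) and UMAMIT21 (0.77). With normexp background correction it was not called for UMAMIT3 (-0.63), UMAMIT12 (0.57), UMAMIT14 (-0.44), UMAMIT21 (0.69), UMAMIT25 (0.92) and UMAMIT46 (0.64), and UMAMIT36 stood at -2.92. The calls of UMAMIT5 (-0.98) and UMAMIT18 (-0.99) ended without cry1cry2 3B7N array 3, that of UMAMIT21 (0.93) without WT 3B7N array 2, and those of UMAMIT14 (-1.45) and UMAMIT21 (0.94) with quantile scaling.

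**Figure D5:**
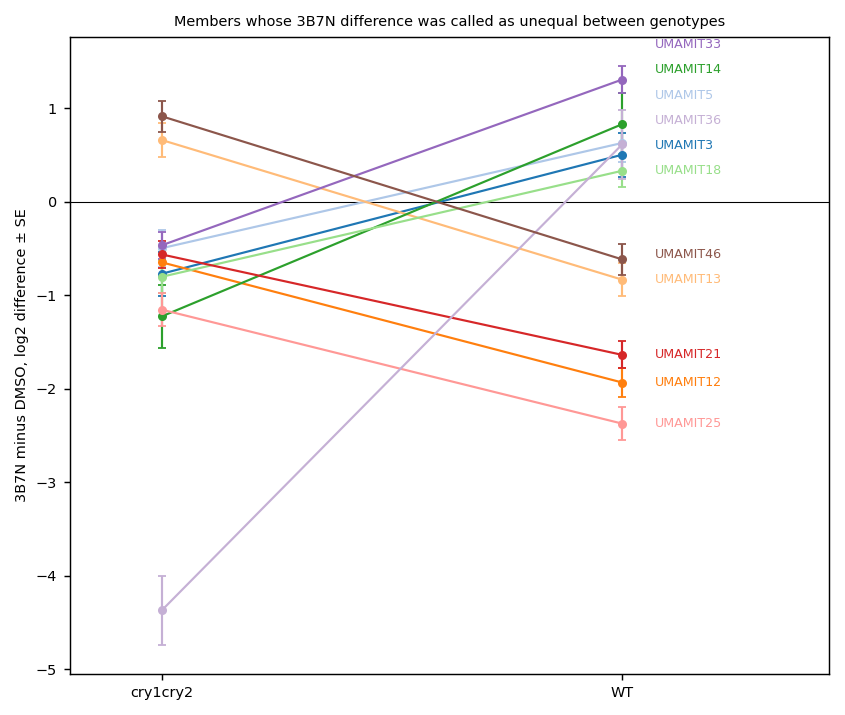
Log2 difference between 3B7N and DMSO (y axis, with SE) in cry1cry2 (left) and in WT (right) for the 11 members whose 2 effects were called as unequal, joined by lines. UMAMIT36 lies at -4.37 in cry1cry2 and 0.61 in WT, and the lines of UMAMIT13 and UMAMIT46 cross 0 in the opposite direction, while the WT point of UMAMIT14 rests on arrays mostly not above background.

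Of the 22 members called in no comparison, several passed the adjusted p but not the size threshold. UMAMIT6 averaged -1.88 ± 0.07 in cry1cry2 on 3B7N, -1.96 ± 0.13 in cry1cry2 on DMSO, -1.69 ± 0.21 in WT on 3B7N and -2.48 ± 0.17 in WT on DMSO (SD, n = 3 each), so its WT difference was 0.78 ± 0.14 (adjusted p = 0.00147). UMAMIT19 averaged -6.96 ± 0.11 in cry1cry2 on 3B7N, -7.38 ± 0.09 in cry1cry2 on DMSO, -6.17 ± 0.23 in WT on 3B7N and -6.45 ± 0.34 in WT on DMSO. It was above background on 3 of 3 arrays in cry1cry2 on 3B7N and on 2 of 3 in each other group. Its values are therefore limited by low signal. Within that limit UMAMIT19 lay lower in the mutant on both media, by -0.79 on 3B7N (adjusted p = 0.0102) and -0.92 on DMSO (adjusted p = 0.00147). UMAMIT37 had a like order, with -0.70 on 3B7N (adjusted p = 0.0234) and -0.55 on DMSO (adjusted p = 0.0391).

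Several further uncalled members had lower values on 3B7N in WT. UMAMIT26 and UMAMIT27 differed by -0.90 and -0.87, UMAMIT42 by -0.78, UMAMIT34 by -0.76, UMAMIT47 by -0.62 and UMAMIT44 by -0.59, each with an adjusted p under 0.05. The glucosinolate exporters UMAMIT30 and UMAMIT31 stood at -0.41 (adjusted p = 0.0328) and -0.48 (adjusted p = 0.215). In cry1cry2, UMAMIT42 differed by -0.77 (adjusted p = 0.0353), while UMAMIT27 and UMAMIT30 stood at -0.02 and -0.01. Higher values on 3B7N in WT were seen for UMAMIT10 (0.53, adjusted p = 0.00623) and UMAMIT38 (0.72, adjusted p = 0.0305), and UMAMIT4 stood at 0.70 (adjusted p = 0.0879).

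UMAMIT8 was the noisiest of the uncalled members, with an SD of 1.32 in WT on 3B7N and 1.28 in WT on DMSO, and its mutant difference on DMSO of 1.60 ± 0.69 was not called (adjusted p = 0.0788). The flattest by the probe that stood for the gene were UMAMIT1, UMAMIT40 and UMAMIT41, whose differences lay between -0.29 and 0.20 in the 4 pairwise comparisons. The further kept probe of UMAMIT1 was less flat, at -0.71 with 3B7N in WT and 0.44 in cry1cry2 against WT on 3B7N. UMAMIT41 averaged 1.49 ± 0.16 in cry1cry2 on 3B7N, 1.68 ± 0.15 in cry1cry2 on DMSO, 1.78 ± 0.08 in WT on 3B7N and 1.63 ± 0.14 in WT on DMSO. UMAMIT2, UMAMIT23 and UMAMIT45 lay within -0.58 and 0.38 in the same comparisons.

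Other genes that carry or make amino acids gave a setting for these values. Of all tested genes, 19.0% were called between the genotypes on DMSO and 7.28% between them on 3B7N. With 3B7N, 15.0% were called in WT and 3.73% in cry1cry2. Of 24 tested amino acid carriers of the AAP, LHT, CAT and PROT types, with GAT1, ANT1 and BAT1, most of them known for uptake into cells, 2 were higher and 5 lower in cry1cry2 than in WT on DMSO, among them PROT3 (-2.93), AAP4 (-2.04), CAT5 (-1.97) and AAP2 (-1.36). The 5 lower carriers include CAT7, which was above background on 1 of 3 cry1cry2 DMSO arrays. With 3B7N in WT, 3 were higher and 3 lower, among them PROT3 (-2.28), AAP4 (-1.60), CAT6 (1.48) and AAP6 (1.71). With 3B7N in cry1cry2 LHT2 fell (-1.08). Between the genotypes on 3B7N, CAT7 was called lower in cry1cry2 (adjusted p = 0.00951), but it was above background on 0 of 3 cry1cry2 arrays and 2 of 3 WT arrays, so no size is given. The uptake carriers thus had called members in both directions wherever more than 1 was called.

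The glutamine dumper (GDU) proteins alter the release of amino acids from cells. Of 6 tested, 0 rose and 3 fell with 3B7N in WT (GDU4 by -1.75, GDU5 by -1.53 and GDU3 by -1.09), and GDU5 fell in cry1cry2 (-1.07, adjusted p = 0.0494). Of all tested genes, 5.89% were called higher and 9.09% lower with 3B7N in WT, and 2.10% higher and 1.63% lower in cry1cry2. Their median log2 difference with 3B7N was -0.72 in cry1cry2 and -0.84 in WT, against 0.04 in cry1cry2 and -0.06 in WT for all tested genes. GDU2 was higher in the mutant on both media, by 2.19 ± 0.67 on 3B7N (adjusted p = 0.0332) and 2.72 ± 0.67 on DMSO (adjusted p = 0.00646). In WT on 3B7N its SD was 1.66, with 2 of 3 arrays above background. GDU4 was also called higher in the mutant on 3B7N, by 1.11 (adjusted p = 0.0027).

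Among 21 enzymes of glutamine, asparagine, glutamate and proline, 4 rose and 4 fell with 3B7N in WT, where 5.89% of all tested genes were called higher and 9.09% lower. The asparagine synthetase gene ASN1, known to be high in dark-grown plants, rose by 2.06 ± 0.24 (adjusted p = 8.26e-05), and ASN2, known to be high in light, fell by 2.06 ± 0.20 (adjusted p = 2.47e-05). The cytosolic glutamine synthetase genes GLN1;2 (-1.20) and GLN1;1 (-1.05) fell there too. In cry1cry2 the enzymes called with 3B7N were GLN1;4 (-1.25) and GLN1;2 (-1.04). Between the genotypes on 3B7N, GLU1 (-1.17) and ASN1 (-1.15) were lower in cry1cry2. On DMSO, 3 enzymes were higher and 3 lower in cry1cry2 than in WT, with ASN2 at -2.53, PRODH2 at 2.13, GLU1 at -1.78 and GLN2 at -1.59.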

How the data were processed

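Total RNA of whole seedlings was labelled with Cy3 and hybridised to 12 one-colour Agilent arrays, 1 per sample. Per the file headers, the authors read spots with Agilent Feature Extraction 10.7.3.1. Of its columns, the processed signal was used, a background-subtracted intensity that the authors had not scaled between arrays. The authors also deposited, for each chemical contrast, a list of probes with a fold without sign, whose scaling and filter are unknown here. The intensities of 45220 spots per array (43803 not controls, 43603 probes) were taken to log2 and set relative to the 75th percentile of the array. Spots of a probe were averaged, leaving out 49 probes that had an outlier spot. Probes were named through the transcript accession in the array files and a RefSeq gene table of TAIR10.1; 34348 probes had a locus. The brightest of the kept probes stood for its gene. Differences were tested with limma 3.58.1 (R 4.3.3, lmFit and eBayes) in 1 model of the 4 group means over all 12 arrays, two-sided, with Benjamini-Hochberg adjustment over 20487 genes. "At least N-fold" is set against the lowest signal flagged well above background on each array. Arrays of 1 group correlated at 0.979 to 0.993 across genes, and 0 spots were saturated. Samples with the same replicate number did not deviate together (correlations from -0.325 to 0.267), so numbers were not taken as pairs. The calling step was tested on simulated data. Every member is accounted for, those called in any contrast with the value on each array, and up to 4 called genes per comparison list with the smallest adjusted p are named. The members, lists and tests were chosen with earlier results of these data known. Alternatives were other scalings, background correction, filters on dim probes, probe choice, array weights, slide, replicate number, samples in the fit, the size threshold and leaving out each array. The headers name an earlier annotation release than the gene table, so no coordinates are given.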

Additional observations from a re-analysis of the deposited data

Results flagged for a closer look

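The effect of 3B7N differed between cry1cry2 and WT, by the interaction test of limma, for 11 members. The effect in the mutant minus that in WT, on the log2 scale, was -4.98 for UMAMIT36, -2.06 for UMAMIT14, -1.77 for UMAMIT33, -1.27 for UMAMIT3, -1.13 for UMAMIT5, -1.13 for UMAMIT18, 1.07 for UMAMIT21, 1.22 for UMAMIT25, 1.29 for UMAMIT12, 1.49 for UMAMIT13 and 1.53 for UMAMIT46. UMAMIT36, UMAMIT33 and UMAMIT13 kept this difference past the threshold in every alternative that gave them a value, and each of the other 8 lost it in at least 1. UMAMIT36 had no value with probes above background on all arrays, since it did not pass that filter. UMAMIT14 was above background on 0 of 3 WT DMSO arrays, so its value is a fitted one and not a measured size. The array values behind each are given with the comparisons above.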

How the results depend on the processing

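Over 29 single-gene results and 653 alternative values, the call was kept in 593, lost in 60 and reversed in 0. The kept values include the setting with no minimum difference, which uses the main fit and keeps every call by construction. Calls of UMAMIT12, UMAMIT14, UMAMIT28, UMAMIT35 and UMAMIT36 had no value with probes above background on all arrays, and these gaps are not counted as lost. The share kept therefore overstates how firm the calls are. Counts of called members moved as follows. For cry1cry2 against WT on DMSO (8), the count was 5 with probes above background on all arrays, 20 with no minimum difference and 7 to 10 with 1 array left out. For the genotypes on 3B7N (1), it was 0 with normexp background correction (11 at unadjusted p under 0.05), 0 with slide as a block (3 at unadjusted p under 0.05), 0 with probes above background on all arrays (9 at unadjusted p under 0.05), 3 with no filter, 6 with no minimum difference and 1 to 2 with 1 array left out. For 3B7N in WT (4), it was 7 with slide as a block and within slide 1, 19 with no minimum difference and 4 to 6 with 1 array left out. For 3B7N in cry1cry2 (5), it was 2 with normexp background correction, 3 with no filter, 3 with only the groups of the contrast, 1 with probes above background on all arrays, 1 with slide as a block and within slide 3, and 12 with no minimum difference. With 1 array left out that count ranged over 3 (without cry1cry2 3B7N array 1 or 3, or cry1cry2 DMSO array 2 or 3) to 8 (without cry1cry2 3B7N array 2). For the interaction (11), it was 6 with normexp background correction and 10 to 13 with 1 array left out. All counts under settings not named here stayed within 1.5 times. With replicate number as a block, a pairing the data did not bear out, the counts were 8, 1, 4, 3 and 11 in this order. Over all genes, slide as a block left 46 calls for the genotypes on 3B7N, against 1491, and 316 for 3B7N in cry1cry2, against 765. Where an arm was left with 1 array, that array is assumed to vary like the other groups. The causes of these shifts were not tested. Members near background, such as UMAMIT14 and UMAMIT35, are limited by their low signal.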

Other observations

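Several members lie beside each other in the genome, and neighbours did not always move alike. UMAMIT12 and UMAMIT13 are adjacent on chromosome 2 with 0 genes between them. UMAMIT12 had a higher value in cry1cry2 on DMSO (0.54 ± 0.16, adjusted p = 0.0165), where UMAMIT13 fell by 1.03, and with 3B7N in cry1cry2 they stood at -0.65 and 0.66. UMAMIT26 and UMAMIT27, adjacent on chromosome 1, stood at -0.31 and -0.02 with 3B7N in cry1cry2 and at -0.90 and -0.87 with 3B7N in WT. On chromosome 3, UMAMIT46, UMAMIT47 and UMAMIT45 follow each other with 0 genes between, and in cry1cry2 against WT on DMSO they stood at -1.79, -0.53 and 0.33. Probe sequences were not used here, so signal shared between such neighbours was not checked.

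Among the 13 members with several kept probes, probes differed most for UMAMIT8, by 0.96 in the interaction. The probes of UMAMIT26 gave -0.46 and -1.19 in cry1cry2 against WT on DMSO and -0.90 and -1.36 with 3B7N in WT. Probes of opposite sign were found for UMAMIT44 and UMAMIT45, with values from -0.35 to 0.37 in the comparisons concerned. The sum of seed maturation markers was 1.62 to 3.11 in cry1cry2 on 3B7N, 1.40 to 4.59 in cry1cry2 on DMSO, 2.97 to 14.4 in WT on 3B7N and 0.521 to 7.23 in WT on DMSO.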
